A study of Mus musculus with 21 samples.

Results

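The 10 genes described here encode inflammatory and regulatory cytokines outside the IL-1 family: *Tnf*, *Il6*, *Il11*, *Lif*, *Osm*, *Ifng*, *Csf2*, *Csf3*, *Il10* and *Tgfb1*. They were chosen by name, as the non-control probes whose gene symbol, or the gene of whose RefSeq record, is one of the 10. This gave 10 of the 55681 probes on the arrays of day 7 and 14 of the 56605 probes on those of day 0, which covered 10 of 23937 and 10 of 27073 named genes. Where a gene had several probes, the brightest one is given unless another is named.

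TNF acts through NF-kB to induce chemokines and adhesion molecules. IL-6, IL-11, LIF and oncostatin M share the receptor chain gp130 and signal through STAT3, and IL-11 in the gut is known as a product of stromal cells after epithelial injury. IFN-gamma activates macrophages, GM-CSF (*Csf2*) and G-CSF (*Csf3*) support the production and survival of myeloid cells, and IL-10 and TGF-beta restrain intestinal inflammation. The members are therefore ordered below as inflammatory ligands, regulatory ligands, receptors and response genes.

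RNA of whole colon from germ-free (GF) male C57BL/6J mice was measured, either carrying a whole-body deletion of *Card9* (GF Card9-/-) or wild type (GF WT). Day 7 held 4 arrays labelled GF Card9-/- (replicates 2, 2.1, 4 and 6) and 4 labelled GF WT (replicates 1, 4, 5 and 6), taken at the end of 7 days of 2% dextran sulfate sodium (DSS), a sulfated polysaccharide that injures the colon epithelium. Day 0 held 7 arrays labelled GF Card9-/- and 6 labelled GF WT, described as taken before DSS although their treatment field also reads DSS. All mice of both genotypes lacked a microbiota, and the ages of these mice are not given in the sources used here. The labels do not name separate mice, so p-values measure only the spread between these samples. All values of a gene below are normalized log2 signals, an array counts as well above background by the scanner software's own criterion, and a difference is the mean under the first label less that under the second. The 2 sets are called KO-labelled and WT-labelled below. Apart from the choice of the brightest probe of a gene, the levels of different probes are not compared with each other. In RNA of whole tissue, fewer cells of a type and less RNA per cell cannot be told apart.

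Of the spots of an array, 42.2% to 57.1% at day 7 and 54.5% to 64.9% at day 0 were well above background, and 0 were saturated. All 8 colonocyte and epithelial markers and all 4 goblet cell markers listed were well above background on every array of both days. *Card9*, the deleted gene, went against its labels. At day 0 its brightest probe read 8.90 ± 0.20 (SD, n = 7) in the KO-labelled arrays and 2.32 ± 0.011 (SD, n = 6) in the WT-labelled arrays. At day 7 it read 7.93 to 8.57 in the KO-labelled arrays and 2.38 to 2.41 in 3 of the WT-labelled arrays, but 7.85 in GF WT replicate 1. Whether labels were exchanged or the probes lie outside the deleted part was not tested. An exchange of all labels would turn every sign below. One that followed *Card9* at day 7 would also put GF WT replicate 1 with the KO-labelled arrays and so change the sizes, and this grouping was not fitted. Genotypes are therefore named here as labelled, every direction is that of the labels, and values without GF WT replicate 1 are given where they bear on a result. Transcripts of pancreas stood out on single KO-labelled arrays. The mean over 8 pancreas markers was 15.64 on replicate 6 and 11.73 on replicate 2.1 at day 7, against 5.03 to 6.99 on the other 6 arrays. At day 0 the mean over 7 of these markers was 17.57 on replicate 7, against 6.27 to 7.58 on the other 12 arrays.

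The day 7 values of *Il11*, *Il6*, *Tnf* and *Tgfb1* below rest on 60-base probes, of which the first 30 bases are shown because they define what was measured. *Tnf* has a further probe, on the day 0 design only, which gives its day 0 values below. Positions are those of the array annotation on build mm9 (NCBI37), which gives no exon or intron for them.
Il11, probe A_51_P267783, chr7:4724847-4724906, minus strand: ctggggtctctatgaaatctgttcacagtg
Il6, probe A_55_P1997756, chr5:30346367-30346426, plus strand: ctgttacctagccagatggtttcttggaat
Tnf, probe A_51_P385099, chr17:35336795-35336854, minus strand: tgggctttccgaattcactggagcctcgaa
Tnf, day 0 probe A_55_P2740937, chr17:35336967-35337026, minus strand: ttattgtctactcctcagagcccccagtct
Tgfb1, probe A_51_P390715, chr7:26489877-26489936, plus strand: actgcccatcgtctactacgtgggtcgcaa

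*Il11*, *Il6* and *Lif* are the gp130 ligands with a probe above background at day 7 on at least 1 array, and their upstream sequences are shown side by side. The promoter table from RefSeq (GRCm38.p6) held 8 entries for 7 of the 10 members. The 250 bases before each start were searched on both strands for the AP-1 motif TGANTCA, the STAT motif TTCNNNGAA and the TATA box TATAAA, and no matches overlapped. AP-1 letters were found in 3 of the 8 entries, 1 each of *Il6*, *Il11* and *Lif*, and in 6.75% of all 32851 entries of that length. STAT letters were in the *Ifng* entry alone (7.02% of all entries), and a TATA box in those of *Tnf* and *Ifng* (12.4% of all entries). Capitals mark these matches, which describe letters and not bound sites.
Il11, chr7:4778142-4778391, minus strand: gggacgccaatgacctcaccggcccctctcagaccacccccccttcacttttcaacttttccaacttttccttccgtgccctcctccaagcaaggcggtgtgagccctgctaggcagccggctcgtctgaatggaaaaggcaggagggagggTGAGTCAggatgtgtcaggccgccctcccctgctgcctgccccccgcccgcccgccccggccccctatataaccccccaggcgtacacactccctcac
Il6, chr5:30012864-30013113, plus strand: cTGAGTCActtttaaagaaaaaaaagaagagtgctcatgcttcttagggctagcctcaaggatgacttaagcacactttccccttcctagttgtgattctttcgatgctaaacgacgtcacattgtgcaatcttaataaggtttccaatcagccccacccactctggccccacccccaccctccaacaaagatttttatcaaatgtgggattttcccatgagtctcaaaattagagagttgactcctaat
Lif, chr11:4257318-4257567, plus strand: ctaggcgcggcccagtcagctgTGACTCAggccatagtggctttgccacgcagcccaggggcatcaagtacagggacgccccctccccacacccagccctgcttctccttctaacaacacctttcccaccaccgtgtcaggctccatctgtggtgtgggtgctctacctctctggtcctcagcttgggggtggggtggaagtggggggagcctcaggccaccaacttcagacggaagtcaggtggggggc
The AP-1 letters began 98 bases before the start in *Il11*, 249 in *Il6* and 228 in *Lif*. The other *Il11* entry, with an upstream start, held none of the 3 motifs.

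The main comparison asked how these cytokines differed between the genotypes in the colon at day 7 of DSS. No member passed the threshold (0 of the 8 tested, limma adjusted p under 0.05), as did none of the 44643 probes tested (0%, lowest adjusted p = 0.312). At an unadjusted p under 0.05 there were also 0 members, against 1511 probes (3.38%). That count of 0 holds for the settings described here and not for every alternative. The unadjusted limma p of *Il11* was 0.036 with normexp background correction, 0.035 with the authors' table, 0.036 with the replicate block, 0.023 with replicates 2 and 2.1 averaged and 0.00076 without GF Card9-/- replicate 2. That of *Il6* was 0.0015 with replicates 2 and 2.1 averaged, 0.0082 without GF Card9-/- replicate 2 and 0.0498 with slide as a random block. It was 0.0047 for *Tnf* without GF Card9-/- replicate 4 and 0.030 for *Lif* without GF WT replicate 6. None of these passed after adjustment (adjusted p = 0.777 to 0.974). Of the 8 members tested, 7 had a higher mean in the KO-labelled arrays and 1 a lower mean, with a median difference of 0.46, where the median of all tested probes was 0.0013. The 7 include *Csf2* and *Il10*, above background on 0 of 8 arrays, and *Il6* and *Ifng*, above background on 1. The split also moved with the setting. Each array has its own measurable limit, the lowest signal of its probes well above background (3.58 to 5.12 at day 7). With values below it raised to it *Lif* was -0.08. There GF WT replicate 5 was raised from 3.04 to 5.12, above every measured *Lif* value of that day. The replicate block rests at day 7 on replicates 4 and 6 alone, the only numbers under both labels. It gave -0.015 for *Tnf*, -0.0047 for *Ifng* and 0.57 for *Tgfb1*. Only 6 of the 10 members were well above background on at least 1 of the 8 arrays, and only *Tgfb1* on all of them. *Csf3* and *Osm* did not pass the filter, and *Csf2* and *Il10* passed it without a single array well above background.

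*Il11* was the member with the widest range at day 7. In the KO-labelled arrays, replicates 2, 2.1, 4 and 6 read 3.98, 9.04, 9.44 and 8.86, each well above background. In the WT-labelled arrays, replicates 1, 4, 5 and 6 read 4.74, 5.65, 5.33 and 7.16, of which replicate 1 was not well above background. Thus 3 KO-labelled arrays lay above every WT-labelled array, and the 4th lay below all of them.

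The means were 7.83 ± 2.58 (SD, n = 4) and 5.72 ± 1.03 (SD, n = 4), a difference of 2.11 (standard error 1.25, 95% interval -0.82 to 5.04, limma adjusted p = 0.913). The two-sided exact permutation test gave p = 0.143, and 4 arrays against 4 cannot give a p below 0.0286. The difference ranged from 1.57 to 3.39 when single arrays were left out, the highest being without GF Card9-/- replicate 2 (adjusted p = 0.922), and it was 1.78 without GF WT replicate 1. The label 2.1 is not explained, and with replicates 2 and 2.1 averaged into 1 sample the difference was 2.55 (standard error 0.86, adjusted p = 0.954). Without replicates 2.1 and 6, which carried pancreas transcripts, it was 0.99. Replicate 4, with the highest *Il11* signal, had a pancreas mean of 6.99 and, like replicates 2.1 and 6, all 8 of 8 pancreas markers well above background. On the other 5 arrays the means were 5.03 to 5.64 with 1 to 5 of the 8 markers above background, so the 3 arrays high in *Il11* were the 3 with all 8 pancreas markers detected. The part of pancreas tissue in the *Il11* values was not tested. On the 2 slides that held both genotypes, the difference was -3.19 (GF Card9-/- replicate 2 against GF WT replicate 6) and 3.39 (GF Card9-/- replicate 2.1 against GF WT replicate 4), so its direction did not hold within slides.

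**Figure D1:**
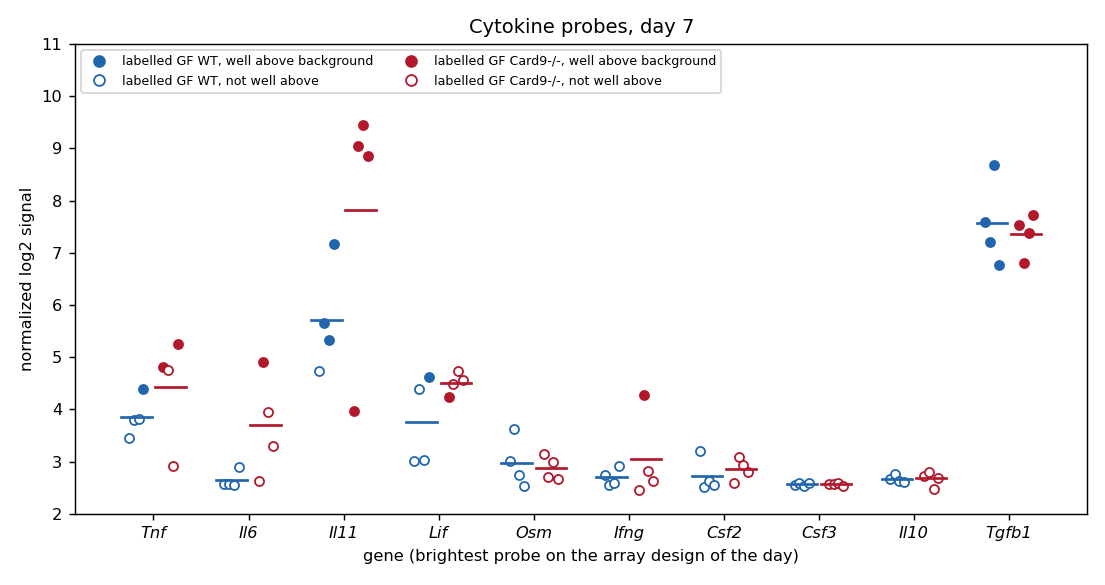
Normalized log2 signal (y axis) of the brightest probe of each of the 10 cytokine genes (x axis) on the 8 arrays of day 7, blue for arrays labelled GF WT and red for arrays labelled GF Card9-/-. Filled points are well above background, open points are not, and lines are means of 4 arrays. *Il11* in red splits into 3 arrays at 8.86 to 9.44 and 1 at 3.98, and most points of *Osm*, *Csf2*, *Csf3* and *Il10* lie near the lower end of the scale without any filled point.

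*Il6*, the acute-phase gp130 ligand, was near the detection limit. The KO-labelled arrays (replicates 2, 2.1, 4 and 6) read 2.62, 4.91, 3.95 and 3.29, and only replicate 2.1 was well above background. The WT-labelled arrays (replicates 1, 4, 5 and 6) read 2.57, 2.58, 2.56 and 2.89, and none was well above background (0 of 4). Again 3 KO-labelled arrays were above every WT-labelled array, and the groups overlapped through replicate 2.

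On the normalized scale the readings of *Il6* differed by 1.05 (standard error 0.45, 95% interval -0.01 to 2.11, limma adjusted p = 0.913, exact permutation p = 0.0571, two-sided). This is not a measured fold, because the WT-labelled side was not measured above background. The mean of the other side, 3.70, lay under the measurable limits of its own arrays (3.75 to 4.46). With each value below the limit of its array raised to it, the difference was 0.19. Within the 2 slides with both genotypes the readings differed by -0.27 and 2.34, so the direction did not hold there, and with scaling to the 75th percentile the difference was 0.48. It was 0.64 without GF Card9-/- replicate 2.1 and 1.02 with replicates 2 and 2.1 averaged (standard error 0.19, adjusted p = 0.954).

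*Lif*, a gp130 ligand that acts on stem and stromal cells, read 4.24, 4.49, 4.73 and 4.55 in the KO-labelled arrays and 3.01, 4.40, 3.04 and 4.62 in the WT-labelled arrays (replicates in the order given for *Il11*). The first group lay close together, while the second split into 2 low arrays, replicates 1 and 5, and 2 at the level of the first group. The 2 low readings lay below the measurable limits of their arrays (4.20 and 5.12). Those arrays also had the smallest shares of spots well above background at day 7 (42.2% and 47.0%). The part of array sensitivity in this split was not tested. Only 1 array of each genotype was well above background. The difference was 0.74 (standard error 0.41, 95% interval -0.21 to 1.69, limma adjusted p = 0.913, exact permutation p = 0.229). It was 0.49 without GF WT replicate 1, and -0.08 with dim values raised to the limits of their arrays. That setting cannot decide the direction, because it puts GF WT replicate 5 at 5.12, above every reading of *Lif*.

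*Osm*, the gp130 ligand of myeloid cells, was measured at day 7 by a probe that did not pass the filter. It read 2.66 to 3.14 in the KO-labelled arrays and 2.54 to 3.63 in the WT-labelled arrays, with 0 of 8 arrays well above background.

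*Tnf*, the NF-kB-inducing cytokine, read 4.82, 4.76, 2.91 and 5.25 in the KO-labelled arrays, replicates 2, 2.1, 4 and 6, of which replicates 2 and 6 were well above background. It read 3.44, 3.80, 3.81 and 4.40 in the WT-labelled arrays, replicates 1, 4, 5 and 6, of which only replicate 6 was. Replicate 4, the array with the highest *Il11*, had the lowest *Tnf* of all 8 arrays, while the other 3 of its label were above every WT-labelled array.

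For *Tnf* the means were 4.44 ± 1.04 and 3.86 ± 0.40 (SD, n = 4 each), and the difference was 0.57 (standard error 0.51, 95% interval -0.61 to 1.76, limma adjusted p = 0.913, exact permutation p = 0.371). It was 1.08 without GF Card9-/- replicate 4, 0.30 without GF Card9-/- replicate 6, 0.43 without GF WT replicate 1 and 0.0034 without replicates 2.1 and 6. Within the 2 slides with both genotypes it was 0.42 and 0.96.

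*Ifng*, the cytokine of type 1 T cells and NK cells, was above background on a single array, GF Card9-/- replicate 2.1, at 4.28. The other 3 arrays of that label read 2.46 to 2.83 and the WT-labelled arrays 2.56 to 2.91. The difference of 0.35 (standard error 0.39, limma adjusted p = 0.915, exact permutation p = 0.714) rested on that array and was -0.06 without it. T cell markers had a higher mean in the KO-labelled arrays for all 9 of 9 genes, with list means of 6.70 to 8.33 against 6.63 to 7.10. Before DSS, at day 0, 8 of these 9 were also higher (median difference 0.21). The day 7 mean of GF Card9-/- replicate 2.1 was the lowest of its label (6.70). The same array, the only one with *Ifng* or *Il6* above background, had the highest mean of the 8 for mesothelium markers (8.25 against 4.06 to 7.14) and adipocyte markers (11.54) and the lowest for smooth muscle markers (13.41), and the part of these in its values was not tested.

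The colony-stimulating factors were not detected at day 7. *Csf2* read 2.59 to 3.09 and 2.52 to 3.20 in the KO-labelled and WT-labelled arrays, and *Csf3* read 2.53 to 2.58 and 2.53 to 2.60, with 0 of 8 arrays well above background for either gene. *Il10* read 2.48 to 2.81 and 2.60 to 2.75, also with 0 of 8. These probes give no order between genotypes at this signal, and a difference below the measurable limit was not detectable.

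*Tgfb1*, the regulatory ligand of the TGF-beta receptors, was the only member well above background on all 8 arrays. The KO-labelled arrays (replicates 2, 2.1, 4 and 6) read 7.54, 6.81, 7.38 and 7.73, and the WT-labelled arrays (replicates 1, 4, 5 and 6) read 7.59, 7.21, 8.69 and 6.77. The 2 groups overlapped, with GF WT replicate 5 above all others. The difference was -0.20 (standard error 0.42, 95% interval -1.18 to 0.78, limma adjusted p = 0.963, exact permutation p = 0.743) and turned to 0.18 without GF WT replicate 5.

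The comparison at day 0 asked whether the labelled genotypes differed before DSS. No member passed the threshold (0 of the 7 tested), where 12 of 47410 probes did (0.0253%), 7 higher and 5 lower in the KO-labelled arrays. At an unadjusted p under 0.05 there were 0 members, against 2769 probes (5.84%). That count of 0 does not hold under every alternative either. It was 1 with the replicate block, and 1 without any 1 of GF Card9-/- replicates 2 and 6 and GF WT replicate 3. In the settings that left out an array this member was *Ifng*, which was never well above background that day. The unadjusted limma p of *Tnf* was 0.043 with the replicate block, for a difference of 0.15, and it did not pass after adjustment (adjusted p = 0.574). Among the members tested, 4 had a higher and 3 a lower mean in the KO-labelled arrays, with a median difference of 0.12 against 0.015 for all probes. Of the 10 members, 5 were well above background on at least 1 of the 13 arrays, and *Tnf* and *Tgfb1* on all 13. The day 0 values of *Tnf*, *Osm* and *Il6* come from probes on that design only.

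At day 0 *Il11* ranged from 5.15 to 6.26 (median 5.50) in the KO-labelled arrays and from 4.90 to 5.85 (median 5.35) in the WT-labelled arrays, passing the background criterion on 6 of 7 and 5 of 6 arrays. The groups overlapped, with 2 KO-labelled arrays above every WT-labelled array. The difference was 0.29 (standard error 0.20, 95% interval -0.13 to 0.72, limma adjusted p = 0.912). It was 0.19 without GF Card9-/- replicate 7, which carried the pancreas transcripts at day 0 and had the highest *Il11* of that day.

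*Tnf* lay within a narrow range by its brightest day 0 probe, 5.95 to 6.46 (median 6.17) in the KO-labelled arrays and 5.79 to 6.27 (median 6.06) in the WT-labelled arrays. The difference was 0.12 (standard error 0.10, 95% interval -0.11 to 0.34, limma adjusted p = 0.912, exact permutation p = 0.273), and it was 0.064 without GF WT replicate 1. The probe used at day 7 was also on this design, was well above background on 3 of 7 and 4 of 6 arrays, and gave a difference of -0.04 (standard error 0.27). The 2 *Tnf* probes thus differed in sign, and both intervals crossed 0.

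*Lif* read 4.20 to 5.30 (median 4.66) and 3.88 to 5.02 (median 4.76), above background on 2 of 7 and 4 of 6 arrays, with a difference of -0.03 (standard error 0.21, limma adjusted p = 0.991). *Osm* read 2.38 to 5.83 (median 4.07) and 2.39 to 4.99 (median 4.16), above background on 2 of 7 and 3 of 6 arrays, with a difference of -0.04 (standard error 0.59, limma adjusted p = 0.995). The *Osm* values of both labels ran from the dimmest readings to signals well above background, and a second *Osm* probe never exceeded background.

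*Ifng* stayed below the background criterion at day 0 (0 of 13 arrays) and read 2.22 to 4.13 in the KO-labelled arrays and 2.21 to 3.65 in the WT-labelled arrays. Its difference of 0.69 (standard error 0.36, 95% interval -0.08 to 1.47, limma adjusted p = 0.907) was the largest of the members tested that day and lay between 0.45 and 0.98 within the 4 slides, but no array of either label was well above background. *Il6*, *Il10*, *Csf2* and *Csf3* were likewise never above background at day 0, with all of their readings between 2.25 and 4.09. At this signal these 5 genes give no order between the labels before DSS.

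*Tgfb1* at day 0 ranged from 6.60 to 8.03 (median 7.68) in the KO-labelled arrays and from 6.95 to 8.15 (median 7.73) in the WT-labelled arrays, well above background on all 13 arrays. The difference was -0.17 (standard error 0.29, 95% interval -0.79 to 0.46, limma adjusted p = 0.948). Leaving out GF Card9-/- replicate 5 gave -0.032, and leaving out GF WT replicate 5 gave -0.30. A second probe of the gene, above background on 3 arrays of each label, gave -0.28 (standard error 0.42).

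**Figure D2:**
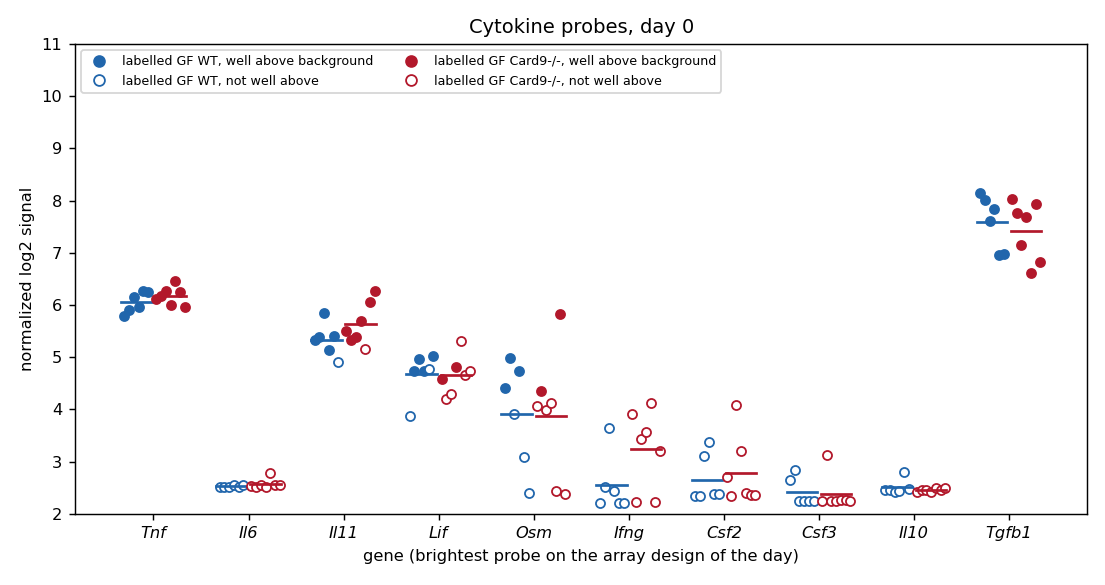
Normalized log2 signal (y axis) of the brightest probe of each cytokine gene (x axis) on the 13 arrays of day 0, drawn as for day 7, with means of 7 arrays labelled GF Card9-/- and 6 labelled GF WT. *Tnf* and *Tgfb1* are filled on every array, and red and blue points of every gene overlap.

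Whether the genotype difference itself differed between the days was tested in a joint fit of the 23633 probes on both designs, in which 0 passed the threshold (0%) and 1688 had an unadjusted p under 0.05 (7.14%). The fit included 6 members. The day 7 difference minus the day 0 difference was 1.82 for *Il11* (standard error 1.03, limma adjusted p = 0.748), 0.77 for *Lif* (standard error 0.42, adjusted p = 0.729) and 0.61 for *Tnf* by the shared probe (standard error 0.53, adjusted p = 0.857). It was -0.34 for *Ifng* and -0.03 for *Tgfb1*, and *Csf2* was below background throughout. Without GF Card9-/- replicate 2 at day 7 the value for *Il11* was 3.1 (adjusted p = 0.0951), the highest when single arrays were left out. The lowest was 1.28, without GF Card9-/- replicate 4 of day 7. The value for *Tnf* was 1.12 without GF Card9-/- replicate 4 of day 7 and 0.34 without replicate 6. That for *Ifng* was -0.76 without GF Card9-/- replicate 2.1 of day 7 and -0.15 without replicate 2. Levels of day 7 were not compared with those of day 0 within a label, because the designs differ between the days and the 2 cannot be told apart.

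**Figure D3:**
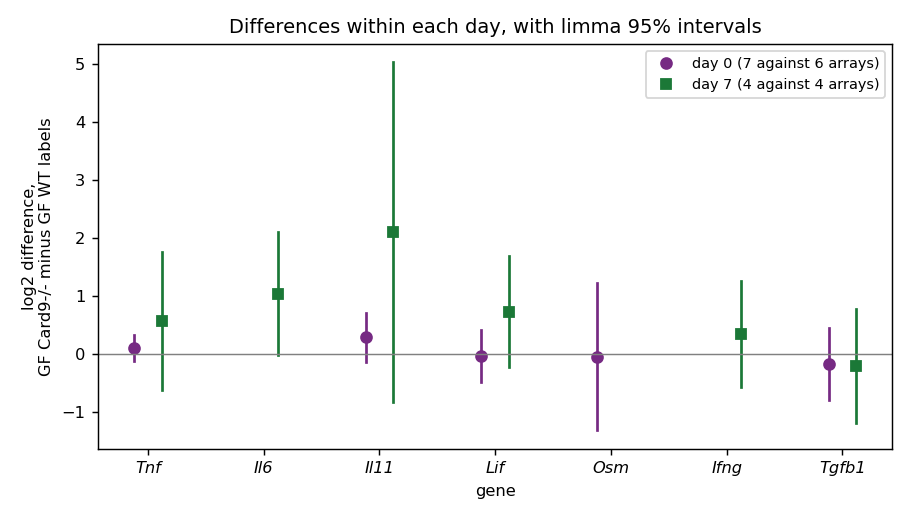
Log2 difference between arrays labelled GF Card9-/- and GF WT (y axis) for the 7 members that were tested and above background on at least 1 array (x axis), with circles for day 0, squares for day 7 and bars for the 95% intervals of limma. All intervals cross 0, and that of *Il11* at day 7 is the widest, from -0.82 to 5.04.

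The receptors of these ligands were well measured. All 18 of 18 listed receptor genes were well above background on every array of both days, and none passed the threshold. At day 7, 10 were higher and 8 lower in the KO-labelled arrays, with a median difference of 0.08. At day 0, 4 were higher and 14 lower, with a median of -0.07.

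For the gp130 ligands, *Il6st*, which encodes gp130 itself, differed by -0.33 (standard error 0.54) at day 7 and -0.56 (standard error 0.32) at day 0. The ligand-specific chains differed at day 7 by -0.12 for *Il11ra1*, -0.03 for *Il6ra*, -0.17 for *Lifr* and 0.14 for *Osmr*. Each of these was smaller than its standard error (0.28, 0.34, 0.46 and 0.46). The chain that binds IL-11 was measured at 12.95 ± 0.53 and 13.07 ± 0.29 (SD, n = 4 each), a much smaller spread than that of its ligand.

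Among the other receptors, *Tnfrsf1b*, the inducible TNF receptor of immune cells, was 6.81 ± 0.21 in the KO-labelled arrays and 6.24 ± 0.46 in the WT-labelled arrays at day 7 (SD, n = 4 each). Its difference of 0.57 (standard error 0.24, limma adjusted p = 0.913) was the only one of the 18 with an unadjusted p under 0.05, and at day 0 it was 0.05. *Il10ra* (0.18), *Ifngr1* (0.12), *Csf2rb* (0.37), *Csf3r* (0.12) and *Tgfbr2* (-0.15) had day 7 differences with adjusted p of 0.913 to 0.973 by limma. The JAK, STAT and SMAD genes downstream of these receptors, 10 in the list, were split 6 higher to 4 lower at day 7 and 5 to 5 at day 0, and 0 passed the threshold.

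Response genes were counted by the pathway that induces them, and none of these counts included a gene past the threshold. At day 7, 8 of 13 STAT3 targets tested were higher in the KO-labelled arrays (median difference 0.18), as were 6 of 13 TNF and NF-kB targets (median -0.03), 9 of 12 IFN-gamma targets (median 0.23) and 4 of 10 TGF-beta targets (median -0.10). At day 0 these counts were 6 of 13, 5 of 15, 7 of 12 and 3 of 10. The list means at day 7 overlapped between the labels in each of the 4 lists.

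*Socs3*, the feedback inhibitor that STAT3 induces, differed by 0.31 at day 7 (standard error 0.44) and -0.19 at day 0. *Timp1*, a metalloprotease inhibitor induced by gp130 ligands, differed by 0.67 (standard error 0.55) and -0.31. Across the 8 arrays of day 7, the mean of the STAT3 targets was lowest, at 8.57, on GF Card9-/- replicate 2 and GF WT replicate 1, the arrays with the lowest *Il11* of their labels, and it was 9.31, 9.88 and 9.68 on GF Card9-/- replicates 2.1, 4 and 6. On GF WT replicates 4, 5 and 6 it was 9.26, 8.82 and 9.34.

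*Tnfaip3*, the NF-kB-induced inhibitor A20, differed by 0.10 at day 7 and 0.06 at day 0. *Cxcl9*, a chemokine induced by IFN-gamma, read 4.94 ± 1.41 and 6.32 ± 2.55 (SD, n = 4 each), a difference of -1.37 (standard error 1.31), and *Irf1*, the transcription factor induced with it, differed by 0.25 (standard error 0.16) at day 7 and -0.24 (standard error 0.08, limma adjusted p = 0.578) at day 0.

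**Figure D4:**
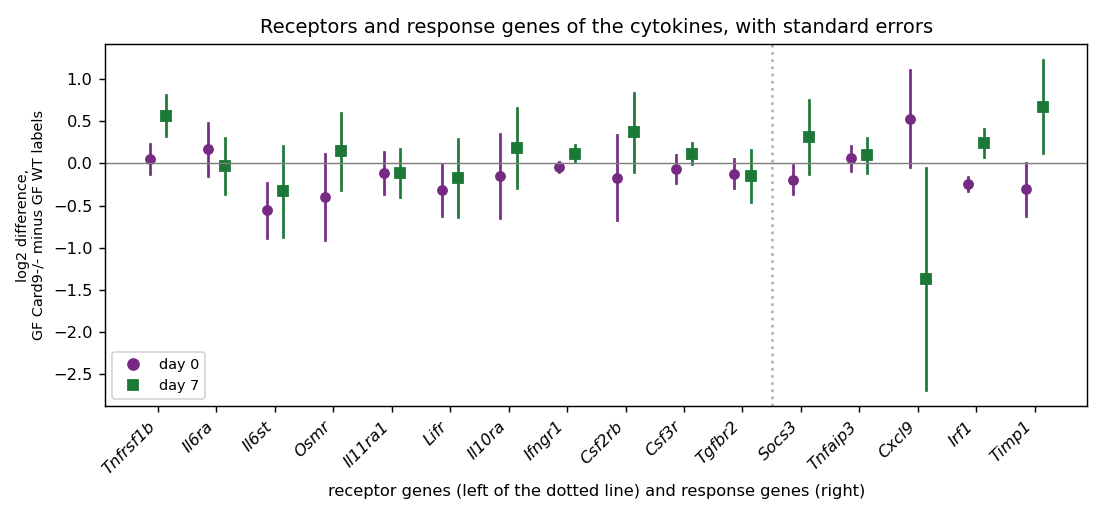
Log2 difference between arrays labelled GF Card9-/- and GF WT (y axis) for 11 receptor genes and 5 response genes (x axis, divided by the dotted line), with circles for day 0, squares for day 7 and bars for 1 standard error. Receptor differences stay within 1 log2 unit of 0, and *Cxcl9* at day 7 (-1.37) has the widest bar.

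Further lists covered cytokines of the same families (22 of 26 tested at day 7, of which 12 were higher), genes that release or activate latent TGF-beta (9 tested, 4 higher) and genes of cytokine mRNA decay and TNF shedding (11 tested, 6 higher). None held a gene past the threshold at either day. The single genes with an unadjusted p under 0.05 at day 7, named after their values were seen, were *Tnfsf10* (TRAIL), with a difference of 0.75, and *Adam17*, the protease that sheds TNF, with 0.63. Among the NF-kB targets it was the neutrophil chemokine *Cxcl1*, with 1.45 and 1 of 8 arrays above background (limma adjusted p = 0.913 for each).

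Markers of other cell types also differed in mean between the labels at day 7. All 8 neutrophil markers had a higher mean in the KO-labelled arrays, with list means of 5.21 to 6.00 against 4.63 to 5.05 and a median difference of 0.38. The alarmin *S100a9* read 6.20 ± 0.69 and 4.55 ± 0.11 (SD, n = 4 each), above background on 4 and 1 arrays, while *Mmp9*, *Cxcr2* and *Mpo* were above background on none. Of the 8 markers, 3 had an unadjusted p under 0.05 by limma, where 3.38% of all probes did, and 0 passed the threshold. At that level there were also 2 of 9 T cell, 2 of 8 pancreas and 1 of 4 mast cell markers at day 7. At day 0 there were 2 of 5 mast cell markers, where 5.84% of all probes did. All were higher in the KO-labelled arrays. Macrophage and monocyte markers had list means of 8.89 to 9.53 and 8.65 to 9.66, fibroblast markers of 10.94 to 11.91 and 11.13 to 12.32, and adipocyte markers, 6 of 7 of them higher in the KO-labelled arrays (median difference 1.01), of 9.45 to 11.54 and 8.46 to 10.74. Mast cell markers were higher in the KO-labelled arrays for 4 of 4 genes tested at day 7 (median 0.69, means of 6.83 to 7.92 against 6.33 to 7.15) and for 5 of 5 at day 0 (median 0.86, means of 6.19 to 7.74 against 5.73 to 6.47). Innate lymphoid and NK cell markers were higher for 5 of 5 at day 7 (median 0.47, means of 5.96 to 6.53 against 5.39 to 6.27). The 6 smooth muscle markers were all lower in the KO-labelled arrays (median -0.45, means of 13.41 to 15.48 against 13.80 to 16.11). At day 0 the 8 fibroblast markers were all lower in the KO-labelled arrays, with a median difference of -0.58 and means of 9.91 to 12.53 against 10.52 to 12.79. The 6 smooth muscle markers (median -0.45), the 4 endothelial markers (median -0.35) and the 6 B and plasma cell markers (median -0.17) were also lower there in every case, and the 4 mesothelium markers were all higher (median 0.93). At day 7, 4 of 4 goblet cell markers (median 0.31) and 7 of 8 colonocyte and epithelial markers (median 0.32) were higher in the KO-labelled arrays. The part of these cell types in the cytokine values was not tested.

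**Figure D5:**
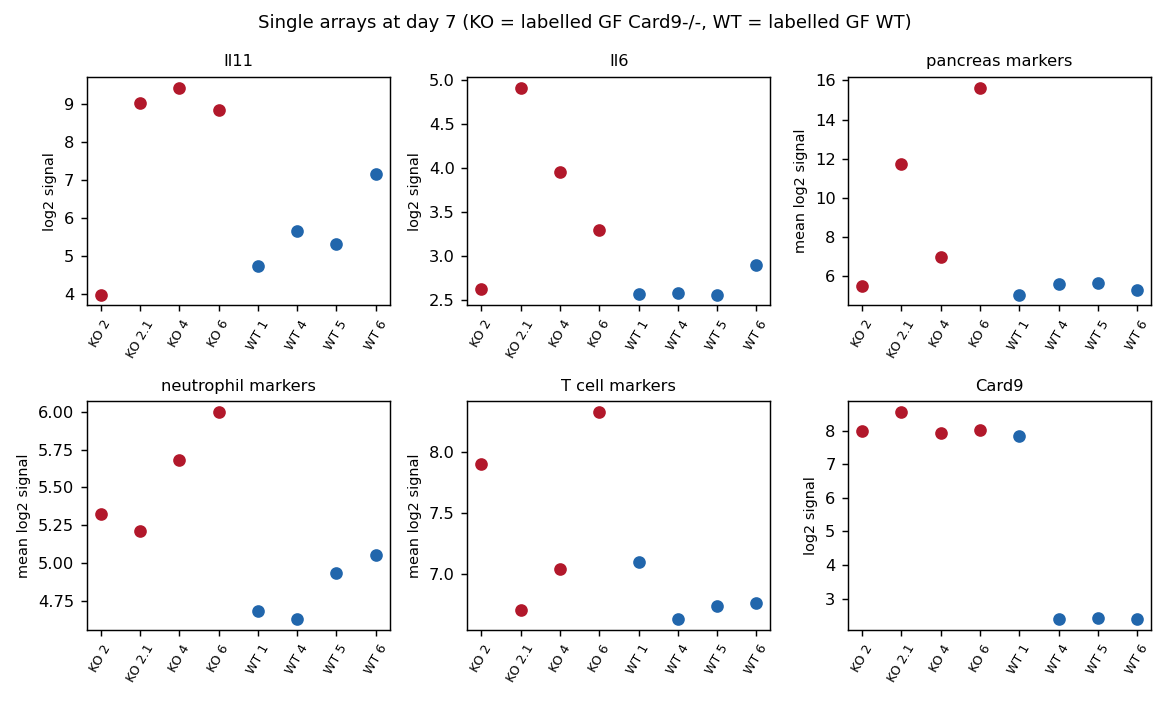
Values of the 8 arrays of day 7 (x axis, KO for arrays labelled GF Card9-/- and WT for arrays labelled GF WT, with the replicate number). The y axes show the log2 signal of *Il11*, *Il6* and *Card9* and the mean log2 signal of the pancreas, neutrophil and T cell markers, and none of them starts at 0. *Il11* is high on KO 2.1, 4 and 6, the mean of the pancreas markers is highest on KO 6, 2.1 and 4 (15.64, 11.73 and 6.99), and *Card9* is high on WT 1 as well as on all 4 KO arrays.

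Only *Il11* and *Tgfb1* were well above background on at least 15 of the 21 arrays by a probe shared between the designs (18 and 21 arrays). Among 15882 other genes, the 2 whose deviations from the mean of their day were most like those of *Il11* were *Slc43a1*, a neutral amino acid transporter (Pearson r = 0.89, Spearman rho = 0.83), and *Phf11d* (r = 0.85, rho = 0.73). For *Slc43a1* r was 0.94 over the 8 arrays of day 7 and 0.57 over the 13 of day 0, so the likeness lay mostly in day 7. The 2 genes most like *Tgfb1* were endothelial, the receptor kinase *Tie1* (r = 0.93, rho = 0.89) and the vascular adaptor *Rasip1* (r = 0.93, rho = 0.91). These coefficients describe 21 arrays that share slides, tissue composition and signal range, and they carry no test.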

How the data were processed

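The authors hybridized Cy3-labelled colon RNA to Agilent arrays, of design 028005 at day 7 and 074809 at day 0, and extracted spots with Feature Extraction (version 10.7.3.1 per the labels). The deposited files hold linear intensity per spot, a p-value against background and flags. The authors also deposited normalized log2 values, used here as an alternative, with their direction of scale checked by rank (Spearman 0.92 to 0.98 with the processed signal). The steps from there to the signals they tabulated are only partly given in the sources used here.

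Control spots and outlier spots were dropped, the processed intensity was put on the log2 scale and quantile normalized within each day, and the mean was taken over the spots of a probe. Testing required a deposited p-value under 0.05 on 60% or more of the arrays carrying 1 of the labels. Labels were compared by limma 3.58.1 (R 4.3.3) with Benjamini-Hochberg adjustment at 0.05, tested on simulated data first. Permutation tests were exact and two-sided. The filter also lets pass spots dimmer than background. Probes were named by RefSeq where possible.

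The arrays labelled GF Card9-/- replicates 2 and 2.1 differed by an SD of 0.852, against a median of 0.907 for other pairs of 1 label, and were counted as separate samples, although the label 2.1 is not explained in the sources used here. The members and gene lists were chosen with earlier results of these data known. Genes named were the members by their brightest probe, *Card9*, 17 receptor and response genes listed whatever their values (1 of them is not reported here), list genes past the threshold (none but *Card9*), and the 2 genes most like each member that was well above background on at least 15 arrays. *Tnfsf10*, *Adam17*, *Cxcl1*, *S100a9*, *Mmp9*, *Cxcr2* and *Mpo* fall outside this rule and were named after their values were seen. The number of arrays limits the precision. Alternatives were another normalization, background correction or filter, the authors' table, slide, scan session and replicate blocks, averaging replicates 2 and 2.1, and leaving out arrays.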

Additional observations from a re-analysis of the deposited data

Results flagged for a closer look

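*Il11* on the array labelled GF Card9-/- replicate 2 at day 7 stood apart from the other 3 arrays of its label. Its log2 signal was 3.98 and the nearest of the others was 8.86, a gap of 0.893 of the group's whole range. On the same array the mean of the pancreas markers was 5.48, that of the T cell markers was 7.91, and that of the B and plasma cell markers was 10.11, the highest of the 8 arrays for that list.

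*Lif* on the array labelled GF WT replicate 1 at day 0 also stood apart. Its log2 signal was 3.88 and the nearest of the other 5 was 4.73, a gap of 0.747 of the range, and it was not well above background there.

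In all, 20 sets of values were examined in this way, each of 1 member under 1 label at 1 day, and 2 held such an array. The sets reuse the same arrays. The criterion is set so that chance flags about 1 in 20 sets, a nominal rate that was not measured here. No difference between the days passed the test for any of the 6 members in the joint fit.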

How the results depend on the processing

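The number of members past the threshold was 0 at either day and in the joint fit under each alternative run. For all probes at day 0 the count of 12 became 27 with normexp background correction, 22 with the authors' table, 22 with the filter on signals well above background and 7 with the replicate block, and lay between 8 and 16 when single arrays were left out. At day 7 it lay between 0 and 1 (1 without GF WT replicate 1), and in the joint fit between 0 and 2 when single arrays were left out and at 1 with the replicate block. Leaving out single arrays moved the members' differences at day 7 within these ranges: *Ifng* -0.062 to 0.55, *Il6* 0.64 to 1.40, *Lif* 0.49 to 1.02, *Tnf* 0.30 to 1.08, *Tgfb1* -0.46 to 0.18. At day 0 they were -0.19 to 0.048 for *Lif* and -0.36 to 0.21 for *Osm* (-0.44 without the slide of GF WT replicate 6), and for *Tgfb1* in the joint fit -0.29 to 0.34.

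No direction that turned had passed the threshold. *Ifng* at day 7 turned to -0.18 with the 75th percentile, -0.0047 with the replicate block, -0.055 without both arrays with pancreas transcripts (chosen after seeing the data) and -0.062 without GF Card9-/- replicate 2.1. *Lif* with dim values raised to the measurable limit of each array turned to 0.043 at day 0, -0.078 at day 7 and -0.12 in the joint fit. At day 7 that limit placed GF WT replicate 5 above every *Lif* reading. The day 0 difference of *Lif* was above 0 without any 1 of GF Card9-/- replicates 2 and 3 and GF WT replicates 3 and 6. *Osm* at day 0 turned to 0.036 with normexp, 0.022 with the authors' table, 0.10 with dim values raised, 0.21 with the replicate block, 0.016 with slide as a block, and it was above 0 without any 1 of GF Card9-/- replicates 7 and 5 and GF WT replicates 1, 2 and 4. *Tgfb1* turned to 0.18 without GF WT replicate 5 at day 7, and in the joint fit to 0.045 with the 75th percentile, to 0.025, 0.070, 0.013 and 0.054 without GF Card9-/- replicates 2, 1, 4 and 6 of day 0, to 0.099 and 0.093 without GF WT replicates 5 and 6 of day 0, and to 0.15 and 0.34 without GF Card9-/- replicate 2.1 and GF WT replicate 5 of day 7. The cause was not tested.

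Replicate numbers did not pair the arrays: deviations of equal numbers correlated between -0.02 and 0.37 at day 0 and at 0.11 and 0.03 at day 7, and 3 of 8 pairs correlated best with their own number. The replicate block rests only on numbers found under both labels. These were replicates 4 and 6 at day 7, and all but GF Card9-/- replicate 7 at day 0. With the replicate block, *Tgfb1* was 0.57 at day 7 and 0.64 in the joint fit, *Tnf* was -0.015 and -0.10, *Lif* was 0.13 and 0.18, and *Il11* at day 7 was 2.74 (adjusted p = 0.832). With normexp and with the authors' table, the day 7 differences were 1.58 and 1.70 for *Il11*, 0.26 and 0.25 for *Il6*, 0.13 and 0.15 for *Tnf*, 0.13 and 0.20 for *Lif* and 0.10 and 0.14 for *Ifng*. In the joint fit they were 0.13 and 0.15 for *Tnf*, 0.15 and 0.23 for *Lif* and -0.066 and -0.091 for *Ifng*, which was -0.71 with the replicate block and -0.74 with the 75th percentile. At day 0 they were 0.13 and 0.17 for *Il11* and 0.072 and 0.073 for *Tnf*, which was 0.035 with the 75th percentile. With dim values raised, the day 7 difference was 0.19 for *Il6* and 0.028 for *Ifng*. Of the 10 members, 4 at day 7 and 5 at day 0 were below background on all arrays, which limits what any setting can show for them.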
